A study of Mus musculus with 10 samples.

Results

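Hemidesmosomes anchor basal keratinocytes to the basement membrane under the epidermis. In them, the keratin filaments of the cell are tied by the plakins plectin (Plec) and BP230 (a product of Dst) to the transmembrane proteins integrin alpha6 beta4 and collagen XVII (Col17a1), which hold laminin-332 outside the cell. The tetraspanin Cd151 sits in the membrane beside the integrin. Lama3 and Lamb3 encode the alpha and beta chains of laminin-332, whereas laminin-511, the other main laminin of this basement membrane, is made of the chains encoded by Lama5, Lamb1 and Lamc1.

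Expression of 9 of these genes was read in ASZ001 cells, a mouse basal cell carcinoma (BCC) line, after inhibition of ALK5 or AP-1. They are Col17a1, Dst, Plec, Cd151, Lama3, Lamb3, Lama5, Lamb1 and Lamc1, chosen with earlier results of these data known. Matched by gene symbol, all 9 were found among the 17658 named genes of 1 RPKM table and the 16719 of the other. In the SB431542 experiment, cells in low-serum medium received DMSO vehicle (n = 3 libraries) or 10 µM SB431542 (n = 3), a small-molecule inhibitor of ALK5, the type I TGFß receptor. In the T-5224 experiment, they were given 20 µM T-5224 (n = 2), a small-molecule AP-1 inhibitor, or DMSO (n = 2). Treatment lasted 24 h in each. All libraries come from this single cell line, and the DMSO libraries of a table were the controls of its inhibitor alone.

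RPKM, a read count scaled to gene length and library size, accounts for length. Levels of different genes can thus be set side by side within a table, if the lengths used fit the transcripts present. Those lengths are not given. Coding transcripts annotated on mm9 run from 1881 to 23285 bases for Dst and from 254 to 15455 bases for Plec. Steps in the values of very short genes put the depth between 31700000 and 51200000 reads per library. All 6 basal keratinocyte markers were present, with a summed level between 9232 and 12426 RPKM in the DMSO libraries. Of 6 fibroblast markers, 5 were listed and only Dcn exceeded 1 RPKM in any library (at most 4.002 RPKM), while the highest melanocyte marker, Pmel, reached 0.426 RPKM. Pecam1 and Cd68, from the endothelial and immune lists, reached 11.8 RPKM and 33.2 RPKM, but Cdh5, Ptprc and Cd3e reached at most 0.0350 RPKM where they were listed. DMSO replicate 1 of the SB431542 experiment stood apart, with its log2 levels deviating from the mean of the other DMSO libraries by an SD of 0.272, against 0.161 and 0.190 for those libraries.

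DMSO-treated cells expressed these genes over a 22.1- to 25.2-fold range in the SB431542 experiment and a 30.6- to 36.5-fold range in the T-5224 experiment. In every DMSO library Col17a1 was the highest and Lamb1 the lowest, at 740 ± 29.2 and 31.9 ± 1.03 RPKM (SD, n = 3) in the SB431542 experiment and at 723 ± 82.3 and 21.6 ± 0.246 RPKM (SD, n = 2) in the T-5224 experiment. Col17a1 ranked 43 among the 10842 genes tested in the first experiment and 33 among 10809 in the second, by mean DMSO level. Dst and Lamb3 came next, Dst being above Lamb3 in all DMSO libraries of the SB431542 experiment and below it in both of the T-5224 experiment. Lama3 followed in both. Cd151 and Plec overlapped in the SB431542 experiment (60.9 to 68.7 and 62.8 to 64.6 RPKM), as did Lamc1 and Lama5 in the T-5224 experiment (35.4 to 36.4 and 32.7 to 36.1 RPKM), so their order is not resolved there. No test was made between DMSO libraries of the 2 tables, whose values were scaled separately.

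**Figure D1:**
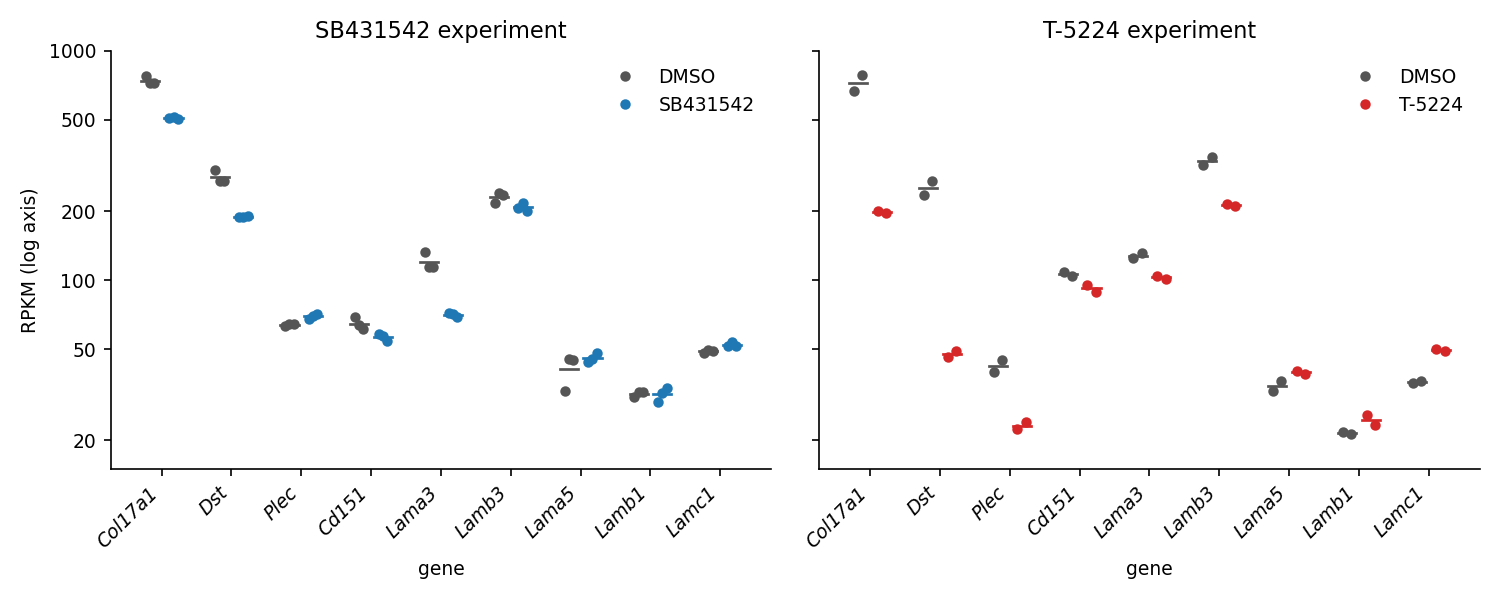
RPKM of the 9 genes (log axis) in each library of the SB431542 experiment (left) and the T-5224 experiment (right). Points are libraries and bars are group means. Col17a1 and Dst fell in both panels, from 723 to 199 RPKM and from 252 to 47.5 RPKM with T-5224, while the Lamc1 mean went from 35.9 to 49.5 RPKM with T-5224.

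The inhibitors were compared with DMSO to ask which of these genes depend on TGFß or AP-1 signaling. With SB431542, Lama3, Dst and Col17a1 fell to 58.6%, 67.2% and 68.7% of their DMSO level. The remaining 6 genes did not pass the test (limma, adjusted p under 0.05), and none of the 9 changed more than 2-fold. So 3 of 9 were lower, where 10.0% of all genes tested were lower, and 0 of 9 were higher, where 10.2% were. Over 2-fold, 0.581% of all genes were down and 0.231% were up. The groups did not overlap for 7 of 9 genes, 5 of them below DMSO, against 21.3% of all genes, and 2 above, against 23.9%. Over the 9 genes the median log2 change was −0.15, against 0.0082 for all genes tested. Without DMSO replicate 1, the library that stood apart, the log2 changes of Lama3, Col17a1 and Dst were −0.69, −0.51 and −0.51 (adjusted p = 5.13e-06, 7.14e-06 and 7.89e-06, limma), and Lamb3 and Cd151 also passed as lower and Plec as higher, so that 5 of 9 were lower and 1 higher. In that fit 17.5% of all genes tested were lower and 19.9% higher.

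With T-5224, all 9 genes passed the same test, but so did most of the transcriptome. Dst and Col17a1 fell to 18.8% and 27.5% of their DMSO level, and Plec, Lamb3, Lama3 and Cd151 fell by less than 2-fold. The laminin-511 chains Lamc1, Lama5 and Lamb1 rose by less than 2-fold. Thus 6 of 9 were lower, against 39.4% of all genes tested, and 3 of 9 were higher, against 40.3%. Over 2-fold, 2 of 9 were down, against 10.6% of all genes, and none was up, against 10.4%. The groups did not overlap for any of the 9, with 6 below DMSO, against 44.5% of all genes, and 3 above, against 45.1%. The median of the 9 was −0.31, against 0.0034 for all genes tested. Whether the responses to the inhibitors, which also differ in dose, differ from each other was not tested. In these bulk libraries, fewer cells of a type and less RNA per cell cannot be told apart.

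**Figure D2:**
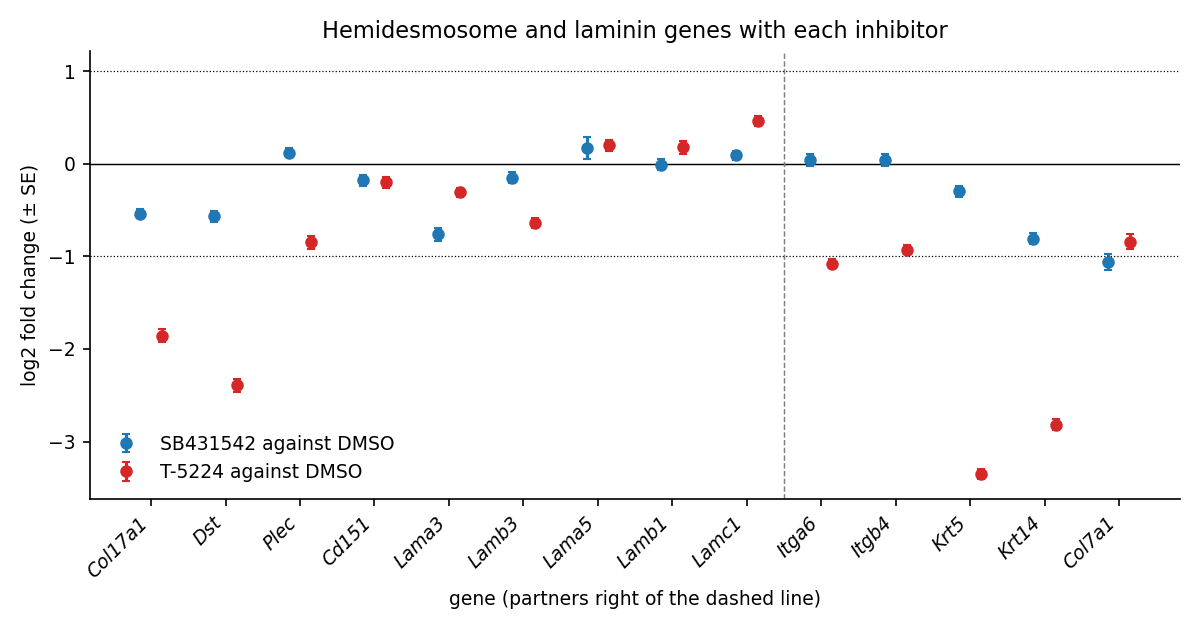
Log2 fold change of each gene with SB431542 (blue) and T-5224 (red) against the DMSO libraries of the same experiment, with the standard error from limma, and dotted lines at a 2-fold change. Left of the dashed line, Dst (−2.39) and Col17a1 (−1.86) lie beyond 2-fold with T-5224 and no gene does with SB431542, and right of it are 5 partner genes.

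Collagen XVII, also called BP180, is the transmembrane collagen of the hemidesmosome. Its gene Col17a1 (mm9 chromosome 19, 47720834 to 47766584, minus strand) was at 773.7, 721.0 and 725.6 RPKM in the DMSO libraries and at 509.9, 512.3 and 502.2 RPKM with SB431542. Every SB431542 library thus lay far below every DMSO library (log2 fold change −0.54, standard error [SE] 0.05, adjusted p = 0.00103, limma). In the T-5224 experiment it was at 664.9 and 781.2 RPKM in DMSO and at 200.3 and 196.9 RPKM with T-5224, a log2 change of −1.86 (SE 0.07, adjusted p = 6.49e-10, limma). Only 2.91% of the genes tested had a lower log2 fold change with T-5224, and 2.99% with SB431542.

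Dst (mm9 chromosome 1, 33965125 to 34365495, plus strand) encodes BP230 in epidermis, and other large plakins from other transcripts. The mm9 annotation lists 8 coding transcripts of up to 23285 bases, which the single RPKM value per gene does not separate. It was at 303.0, 269.6 and 269.6 RPKM in DMSO and at 187.5, 188.0 and 190.3 RPKM with SB431542, a log2 change of −0.57 (SE 0.06, adjusted p = 0.00138, limma). With T-5224 it went from 235.6 and 269.0 RPKM to 46.1 and 49.0 RPKM, a log2 change of −2.39 (SE 0.07, adjusted p = 6.04e-11, limma), and the groups were apart in both experiments. This was the largest fall among the 9 genes. The ratio of Dst to Col17a1 within a library was 0.379 ± 0.0110 in DMSO and 0.371 ± 0.00670 with SB431542 (SD, n = 3). It was 0.349 ± 0.00708 in DMSO and 0.239 ± 0.0134 with T-5224 (SD, n = 2), so Dst lost more than Col17a1 there.

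The sequence before the transcription start is shown for Col17a1 and Dst, the genes that fell most with the AP-1 inhibitor, for Lamb3, which holds a SMAD motif, and for Lama5, which rose. Each run covers the 190 bases from 250 to 61 bases before a RefSeq start (GRCm38.p6), in the direction of the gene, and capitals mark a match to the SMAD motif.
Col17a1, chr19:47692103-47692292, minus strand: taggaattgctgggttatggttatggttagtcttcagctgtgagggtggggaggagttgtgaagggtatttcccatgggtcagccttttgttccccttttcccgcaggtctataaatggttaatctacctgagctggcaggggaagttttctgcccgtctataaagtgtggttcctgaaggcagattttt
Dst, chr1:34160010-34160199, plus strand: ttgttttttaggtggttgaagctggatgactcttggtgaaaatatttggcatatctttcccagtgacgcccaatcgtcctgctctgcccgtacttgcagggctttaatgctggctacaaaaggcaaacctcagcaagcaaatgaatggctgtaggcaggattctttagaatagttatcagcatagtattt
Lamb3, chr1:193301744-193301933, plus strand: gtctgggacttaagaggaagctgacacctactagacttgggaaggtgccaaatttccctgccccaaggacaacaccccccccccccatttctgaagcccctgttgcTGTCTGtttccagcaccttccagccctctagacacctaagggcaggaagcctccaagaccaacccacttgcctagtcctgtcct
Lama5, chr2:180225920-180226109, minus strand: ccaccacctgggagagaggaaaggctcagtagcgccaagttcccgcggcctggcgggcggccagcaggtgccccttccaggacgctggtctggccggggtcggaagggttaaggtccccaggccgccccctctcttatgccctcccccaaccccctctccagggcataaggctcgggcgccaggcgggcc
The AP-1 motif TGANTCA, which reads alike on both strands, was in 0 of the 9 promoter windows (300 bases, from 250 before to 50 after a start) that RefSeq gives for 6 of the genes. It was in 7.81% of all 32851 such windows of the genome. The SMAD motif CAGACA, searched on both strands, was in 2 of the 9 windows, 1 of Lamb3 and 1 of Cd151, and in 21.0% of all windows. No window was in the table for Lama3, Lamc1 and Plec. The GC content was 46.3% in the Col17a1 window, 46.0% in that of the shown Dst start, 70.3% in that of the other Dst start and 72.7% in that of Lama5, against a median of 52.7% over all windows. Bases after the start were found in the 5′ part of an mm9 coding transcript of the gene in every window of the other 5 genes. They were found in 0 of the 2 Dst windows. For a short transcript that part was all of it, so a match need not lie at the 5′ end. Which Dst start these cells use was not tested. These are matches of letters in a short window and say nothing of binding there or farther away.

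Plectin links keratin filaments to integrin beta4. Plec (mm9 chromosome 15, 76001404 to 76063004, minus strand), for which 22 coding transcripts are annotated, was at 62.8, 64.0 and 64.6 RPKM in DMSO and at 67.9, 69.9 and 70.9 RPKM with SB431542. The SB431542 libraries were all higher, but the log2 change of 0.12 did not pass the test (SE 0.05, adjusted p = 0.0995, limma), although it did without DMSO replicate 1 (0.11, adjusted p = 0.0310). With T-5224 it fell from 39.6 and 44.9 RPKM to 22.3 and 24.0 RPKM, a log2 change of −0.85 (SE 0.07, adjusted p = 5.54e-07, limma). The ratio of Dst to Plec, the plakins of the hemidesmosome, dropped within libraries in both experiments, from between 4.18 and 4.82 to between 2.69 and 2.76 with SB431542, and from 5.98 ± 0.0291 to 2.05 ± 0.0167 (SD, n = 2) with T-5224.

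Cd151 (mm9 chromosome 7, 148653261 to 148657378, plus strand) fell least with T-5224 among the genes that fell. It was at 107.9 and 104.0 RPKM in DMSO and at 95.5 and 88.4 RPKM with T-5224, a log2 change of −0.20 (SE 0.06, adjusted p = 0.00560, limma). The groups did not overlap, but without T-5224 replicate 2 the difference no longer passed the test (−0.15, adjusted p = 0.0617). In the SB431542 experiment it was at 68.7, 63.4 and 60.9 RPKM in DMSO and at 58.4, 56.7 and 54.3 RPKM with SB431542. That difference of −0.18 (SE 0.06, adjusted p = 0.0719, limma) passed only without DMSO replicate 1 (−0.14, adjusted p = 0.0306).

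Among the chains of laminin-332, Lama3 (mm9 chromosome 18, 12492533 to 12741522, plus strand) fell most with the ALK5 inhibitor. It was at 133.1, 113.4 and 114.5 RPKM in DMSO and at 71.5, 71.3 and 68.8 RPKM with SB431542, the largest fall of the 9 genes with this inhibitor (log2 change −0.76, SE 0.07, adjusted p = 8.61e-04, limma). Only 1.36% of the genes tested had a lower log2 fold change. With T-5224 it went from 124.2 and 131.1 RPKM to 104.0 and 101.5 RPKM, a log2 change of −0.31 (SE 0.05, adjusted p = 1.91e-04, limma), and 33.0% of the genes tested had a lower one.

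Lamb3 (mm9 chromosome 1, 195128151 to 195170072, plus strand) showed the larger fall with T-5224. It was at 316.7 and 344.0 RPKM in DMSO and at 214.1 and 209.9 RPKM with T-5224, a log2 change of −0.64 (SE 0.05, adjusted p = 6.89e-07, limma). With SB431542 it was at 206.3, 215.7 and 200.4 RPKM, against 215.7, 239.5 and 233.7 RPKM in DMSO. The highest SB431542 library lay just under the lowest DMSO library, and the log2 change of −0.15 did not pass the test (SE 0.06, adjusted p = 0.125, limma), but it did without DMSO replicate 1 (−0.19, adjusted p = 0.00464). These chains did not move in proportion to each other. The ratio of Lama3 to Lamb3 went from between 0.474 and 0.617 in DMSO to between 0.331 and 0.347 with SB431542, but from 0.381 and 0.392 to 0.484 and 0.486 with T-5224.

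None of the laminin-511 chains was lower with either inhibitor. Lamc1 (mm9 chromosome 1, 155066052 to 155179916, minus strand), the gamma chain, had the clearest rise with T-5224, from 35.4 and 36.4 RPKM to 50.03 and 48.97 RPKM (log2 change 0.46, SE 0.05, adjusted p = 1.12e-05, limma). With SB431542 it was at 51.7, 53.5 and 51.8 RPKM against 48.0, 49.6 and 49.2 RPKM in DMSO. These groups did not overlap either, but the difference of 0.09 did not pass the test (SE 0.05, adjusted p = 0.188, limma).

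Lama5 (mm9 chromosome 2, 179911078 to 179960564, minus strand), the alpha chain, had 32.7 RPKM in the SB431542 experiment in DMSO replicate 1, under the 45.23 and 44.98 RPKM of the other DMSO libraries. With SB431542 it was at 43.7, 45.4 and 48.1 RPKM, so the groups overlapped (log2 change 0.17, SE 0.12, adjusted p = 0.354, limma), and without DMSO replicate 1 the log2 fold change was 0.02. With T-5224 it rose from 32.7 and 36.1 RPKM to 40.2 and 38.8 RPKM, a log2 change of 0.20 (SE 0.06, adjusted p = 0.0135, limma). This call was lost without DMSO replicate 1 of that table (0.13, adjusted p = 0.118), without T-5224 replicate 1 (0.17, adjusted p = 0.0884) and under quantile normalization (0.10, adjusted p = 0.134).

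Lamb1 (mm9 chromosome 12, 31950099 to 32014509, plus strand), the beta chain, was at 30.8, 32.6 and 32.4 RPKM in DMSO and at 29.5, 32.0 and 33.9 RPKM with SB431542, with overlapping groups and a log2 change of −0.01 (SE 0.06, adjusted p = 0.940, limma). With T-5224 it rose from 21.7 and 21.4 RPKM to 25.8 and 23.3 RPKM, a log2 change of 0.18 (SE 0.07, adjusted p = 0.0244, limma). Without T-5224 replicate 1 that was 0.11 (adjusted p = 0.244), and under quantile normalization it was also 0.11 (adjusted p = 0.0917). It also missed the threshold with no filter on low values (adjusted p = 0.0561) and with no mean-variance trend (adjusted p = 0.0543).

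The balance of the laminin chains can be read within each library, where scaling between libraries has no part. The ratio of Lama5 to Lama3 was 0.346 ± 0.0866 in DMSO and 0.649 ± 0.0458 with SB431542 (SD, n = 3), and 0.270 ± 0.00853 in DMSO and 0.385 ± 0.00305 with T-5224 (SD, n = 2). This ratio was higher in every treated library than in every DMSO library of the same table. The ratio of Lamb1 to Lamb3 went from 0.0654 ± 0.00456 to 0.116 ± 0.00654 with T-5224, and in the SB431542 experiment it ranged from 0.1363 to 0.1426 in DMSO and from 0.1429 to 0.169 with SB431542, the nearest libraries of those groups being almost level. These pairs were chosen with the gene values known, and they are given as a description with no test.

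**Figure D3:**
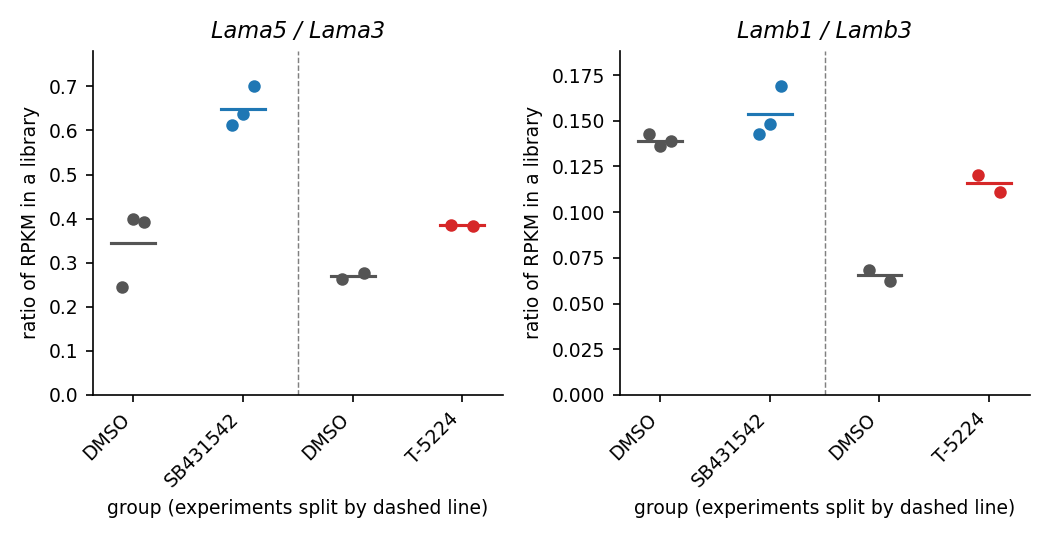
Ratio of the RPKM of a laminin-511 chain to that of its laminin-332 counterpart in each library, for alpha (left) and beta chains (right). Points are libraries, bars are group means, and axes start at 0. The alpha ratio was higher in all treated libraries than in all DMSO libraries of the same experiment, reaching 0.700 with SB431542 and 0.387 with T-5224.

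The partners of these genes in the hemidesmosome and its anchorage were Itga6 and Itgb4 (the integrin), the keratins Krt5 and Krt14, and Col7a1, which forms the anchoring fibrils under the basement membrane. Of these 5 genes, 3 were lower with SB431542 and 5 with T-5224, and none was higher. Over all genes tested, 10.0% were lower with SB431542 and 39.4% with T-5224. With SB431542, Itga6 and Itgb4 each had a value of 0.04 on the log2 scale (adjusted p = 0.645 and 0.673, limma). With T-5224 they fell to 47.0% and 52.5% of DMSO (log2 fold changes −1.08 and −0.93, adjusted p = 4.82e-09 and 1.16e-08, limma). Col7a1 fell from 47.4 ± 5.76 to 22.4 ± 0.292 RPKM with SB431542 (SD, n = 3; log2 fold change −1.06, adjusted p = 4.93e-04, limma), more than any of the 9 genes with this inhibitor, and by −0.84 with T-5224 (adjusted p = 1.16e-06, limma). Lama3, Dst, Col17a1, Krt14 and Col7a1 were lower with SB431542 in each of the 6 fits with 1 library left out.

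Krt14 and Krt5, the most abundant genes in DMSO, were lower with both inhibitors, as were Lama3, Col17a1 and Dst among the 9 genes. Krt14 fell from 4076 ± 187 to 2320.0 ± 77.2 RPKM with SB431542 (SD, n = 3; log2 fold change −0.81, adjusted p = 4.02e-04, limma) and from 5708 ± 339 to 809 ± 24.1 RPKM with T-5224 (SD, n = 2; −2.82, adjusted p = 8.73e-12, limma). Krt5 fell from 6002 ± 121 to 589 ± 13.6 RPKM with T-5224 (SD, n = 2; −3.35, adjusted p = 1.06e-12, limma). After SB431542 its log2 change was −0.30 (adjusted p = 0.0176, limma), a call lost without any 1 of the SB431542 libraries (adjusted p = 0.0535, 0.0986 and 0.0853 without replicates 1, 2 and 3), with the replicate block (adjusted p = 0.0653) and with no filter on low values (adjusted p = 0.310). Summed levels of other cell type lists also differed between groups, the immune list (nearly all Cd68) from between 16.7 and 18.6 RPKM to between 32.7 and 33.2 RPKM with T-5224, and the endothelial list (nearly all Pecam1) from between 10.7 and 11.8 RPKM to between 4.11 and 4.67 RPKM. In the SB431542 experiment the endothelial sum went from between 5.23 and 6.57 RPKM to between 2.60 and 2.83 RPKM, and the fibroblast sum, mainly Dcn, from between 2.45 and 2.63 RPKM to between 3.69 and 4.14 RPKM. All 6 basal keratinocyte markers were lower with T-5224, where 39.4% of all genes tested were lower. Their summed level went from between 11763 and 12426 RPKM to between 1598 and 1659 RPKM. With SB431542 the sum went from between 9232 and 9399 RPKM to between 6457 and 6913 RPKM. This sum is nearly all Krt5 and Krt14, the 2 of the 6 markers that were lower with SB431542. Krt15 was higher (log2 change 0.49, adjusted p = 0.0291, limma), and Trp63, Cdh1 and Cdh3 passed neither way. The part of these shifts in the falls of Col17a1, Dst and the laminin-332 chains was not tested.

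The other laminin chains were hardly expressed. Lama1, Lama2, Lama4 and Lamc3 were all under the level tested, and Lamb2 was at 4.28 ± 0.178 RPKM (SD, n = 3) and 7.18 ± 0.549 RPKM (SD, n = 2) in DMSO. Its log2 change was −0.14 after SB431542 (adjusted p = 0.285, limma) and −0.38 after T-5224 (adjusted p = 0.00169, limma). Of 7 laminin receptors, 6 were tested, and 1 was lower and 2 were higher with SB431542, against 5 lower and 0 higher with T-5224. Among all genes tested, 10.0% were lower and 10.2% higher with SB431542, and 39.4% and 40.3% with T-5224. The SB431542 calls of Itgb1 (−0.26) and Bcam (0.25) did not hold under every alternative, with adjusted p up to 0.0781 and 0.112. Itga3, the alpha subunit of the other laminin-332 integrin, was higher with SB431542 (0.33, adjusted p = 0.00999, limma), a call lost without SB431542 replicate 2 or 3 (adjusted p = 0.0589 and 0.0581). It was at 0.10 with T-5224 (adjusted p = 0.106, limma). Dag1, which encodes dystroglycan, and Bcam, a receptor for the laminin alpha5 chain, fell to 30.3% and 26.7% of DMSO with T-5224 (log2 fold changes −1.71 and −1.90, adjusted p = 2.04e-10 and 9.75e-11, limma).

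**Figure D4:**
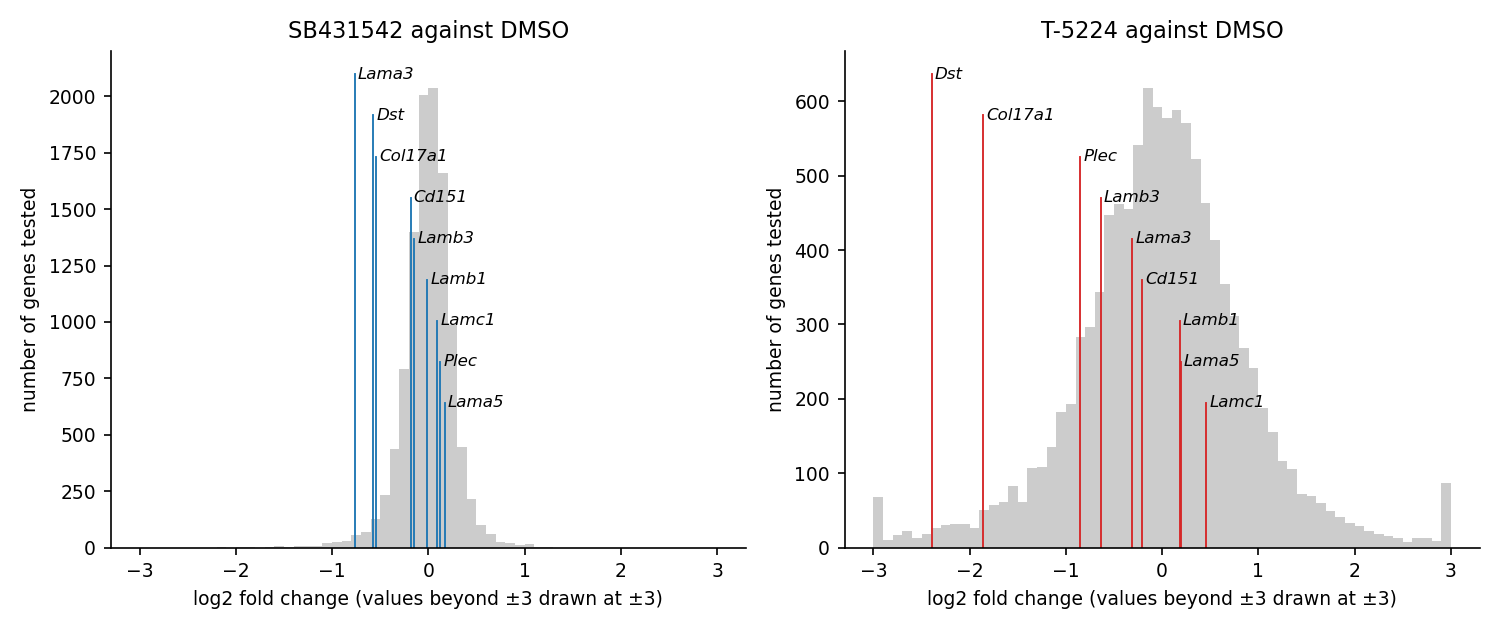
Number of genes tested at each log2 fold change with SB431542 (left, 10842 genes) and T-5224 (right, 10809 genes), in bins of 0.1, with a labelled line at the value of each of the 9 genes (its height has no meaning) and values beyond 3 drawn at the edge. Lama3 (−0.76), Dst and Col17a1 lie in the lower tail with SB431542, Dst (−2.39) and Col17a1 (−1.86) with T-5224, and the laminin-511 chains lie near the middle.

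Genes with the most similar profile were sought over the 10 libraries among the 10462 genes tested in both tables, as the smallest root mean square difference in log2 level after subtracting the DMSO mean of each table. For Col17a1 these were Dock8 (0.0653), Nav1 (0.0657) and the tensin gene Tns4 (0.0659). For Dst they were the chondroitin sulfotransferase genes Chst12 (0.0549) and Chst11 (0.0963), with the growth factor receptor gene Fgfr2 (0.0829) between them. For Lamb3 they were Shroom3 (0.0336), Itpr3 (0.0337) and Trmt12 (0.0365), and for Cd151 they were the kinase gene Jak1 (0.0310), Mtus1 (0.0390) and Snx2 (0.0416). Within the 9 genes, Col17a1 and Dst were each other's nearest, at 0.243, and the nearest to Lama3 was Cd151, at 0.323.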

How the data were processed

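Poly(A) RNA-seq libraries of ASZ001 cells were read from 2 tables, 1 per inhibitor. Values are RPKM, which the authors computed in HOMER (analyzeRepeats.pl) from TopHat alignments to mm9. The gene lengths used are not given in the sources used here. Their own comparison used DESeq2 on counts, which were not used here, so a test for RPKM was chosen.

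Rows bearing a date in place of a symbol (22 and 23) were dropped. Where its RPKM averaged 1 or more over a table's libraries, a gene was tested (10842 and 10809 genes). limma 3.58.1 (R 4.3.3) was fitted to log2(RPKM + 0.5) with a trend of variance on mean, and p-values were adjusted over all genes tested by Benjamini and Hochberg's method. Fold changes are on that scale. Lower or higher means an adjusted p under 0.05, and over 2-fold a log2 fold change beyond 1 as well. Each p-value weighs a mean difference against the spread between libraries of a group, which limma moderates with the spread of other genes. With few libraries per group, it speaks for these libraries only. The fit was tested on simulated data. Libraries carry the replicate numbers of the labels, except the DMSO libraries of the T-5224 table, numbered 1 and 2 as there. All 10 columns were used.

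The 9 genes and the other gene lists were chosen with earlier results of these data known. Named genes are the 9, the members of 3 lists (hemidesmosome partners, other laminin chains, laminin receptors), of each other list up to 4 genes with the largest change, and the 3 nearest profiles of 4 genes. Some genes of these lists are not reported here. Depth was found from RPKM of short genes with few reads, where 99.1% or more of values were within 0.05 of a whole read. Positions are from GENCODE vM1 (NCBIM37, the assembly behind mm9) and promoters from RefSeq (GRCm38.p6). Alternatives were pseudocounts of 0.1 and 1, no filter or a mean RPKM of at least 5, median centring, quantile normalization, no trend, a replicate block, and each library left out.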

Additional observations from a re-analysis of the deposited data

How the results depend on the processing

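Over 14 alternatives for SB431542 and 12 for T-5224, 120 of 126 and 100 of 108 fits of the 9 genes kept the direction and the side of the threshold. The falls of Col17a1, Dst and Lama3 held in all 14, and those of Col17a1, Dst, Plec, Lamb3 and Lama3 and the rise of Lamc1 in all 12. With each library left out, the genes lower with SB431542 numbered 3 to 5 of 9 and those higher 0 to 1, the 5 and the 1 without DMSO replicate 1. Leaving out a library of the T-5224 experiment left 1 in its group, which was assumed to vary like the other group, and gave 5 to 6 lower genes. Those higher with T-5224 numbered 1 to 3, the 1 without T-5224 replicate 1, and quantile normalization also gave 1. The cause was not tested. Near 0, the sign turned with SB431542 for Itga6 and Itgb4 (each −0.01 under quantile normalization, and 0 to 0.07 and −0.02 to 0.08 in the 6 fits without a library) and for Lamb1 (−0.05 to 0.04 over the same 6 fits). It also turned for Itga3 with T-5224 (−0.02 under quantile normalization).

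Same-numbered libraries of the SB431542 experiment had correlations of the deviations from the group means of −0.148, 0.151 and −0.0949 for numbers 1, 2 and 3. With so few libraries, these values cannot show whether the numbers mark pairs. With the replicate block, 3 of the 9 genes were lower, as without it, and over all genes 699 were lower and 572 higher, against 1085 and 1107. With a library left out these counts ran from 433 to 1900 and from 300 to 2163. The Krt5 call with SB431542 was also lost under quantile normalization, which sets the top gene of every library equal. Over 2-fold with SB431542, 25 were up, against 38 and 12 with pseudocounts of 0.1 and 1, and 10 with a mean RPKM of at least 5, where 41 were down against 63. With T-5224 that filter gave 742 down, against 1144. In the T-5224 experiment the sample titles share no replicate number between groups, but the table's columns do, with a correlation of 0.059 between same-numbered libraries. A replicate block on those numbers, chosen after seeing the data, gave 6 lower and 3 higher of the 9 genes, as without it, and 4364 lower and 4464 higher of all genes, against 4260 and 4356. Depth did not limit these genes, whose lowest level was 21.4 RPKM in DMSO, but with 2 or 3 libraries a group the spread is known only roughly.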

Other observations

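Other gene lists around the hemidesmosome and basement membrane were read in the same fits. Each count below stands beside the shares over all genes tested. With SB431542 these were 10.0% lower and 10.2% higher. With T-5224 they were 39.4% lower and 40.3% higher, and 10.6% were down over 2-fold. Of 20 other basement membrane genes, 11 were tested. With SB431542, 3 were lower and 2 higher, among them Npnt (log2 fold change 0.51, adjusted p = 0.00400, limma) and Tinagl1 (0.46, adjusted p = 0.00338, limma). With T-5224, 9 were lower and 0 higher, 4 of them over 2-fold, led by Ntn4 (−1.57, adjusted p = 1.34e-08, limma) and Fras1 (−1.41, adjusted p = 1.61e-06, limma). The collagen IV chains differed among themselves, with Col4a5 at −1.33 (adjusted p = 4.86e-09, limma) and Col4a1 and Col4a2 at 0.13 and −0.04 (adjusted p = 0.0559 and 0.471, limma), the last pair being named after their values were seen.

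Of 5 other plakins, cytoskeletal linkers such as the desmosomal Dsp, 1 was lower and 1 higher with SB431542. These were Dsp (−0.29, adjusted p = 0.0434, limma, up to 0.145 under the alternatives) and Evpl (0.35, adjusted p = 0.00614, limma). All 4 tested with T-5224 were lower, with Ppl at −1.96 (adjusted p = 1.24e-09, limma) and Evpl at −1.41 (adjusted p = 1.77e-08, limma). Of 16 tetraspanins tested beside Cd151, 0 were lower and 1 was higher with SB431542, and 11 were lower and 2 higher with T-5224, with Tspan2 (−2.24, adjusted p = 2.10e-09, limma) and Tspan9 (−1.54, adjusted p = 4.89e-10, limma) falling most.

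Of 8 genes of proteases that cut laminin-332 or collagen XVII, 6 were tested. With SB431542, Mmp14 and Bmp1 were lower and 0 were higher. Mmp14, a membrane-bound matrix protease, fell from 46.8 ± 1.53 to 24.0 ± 1.03 RPKM (SD, n = 3; log2 fold change −0.95, adjusted p = 1.24e-04, limma). With T-5224, 4 were lower and 1 higher, and Mmp14 fell from 67.7 ± 3.54 to 21.6 ± 1.38 RPKM (SD, n = 2; −1.63, adjusted p = 1.06e-09, limma). The call of Bmp1 with SB431542 (−0.31, adjusted p = 0.0223, limma) reached an adjusted p of 0.0971 under the alternatives. Of the suprabasal keratinocyte markers, Krt10 was tested, at 0.07 with SB431542 and −0.73 with T-5224.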
